A study of Mus musculus with 12 samples.

Results

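The 8 genes described here encode apolipoproteins (Apoe, Apoc1 and Apod), secreted proteins that remodel lipoproteins (Pltp, Lpl and Lipg) and lipoprotein receptors (Vldlr and Lrp1). They were chosen by gene symbol with their expected counts in the same 4 groups of libraries already known. The fold changes and adjusted p-values below therefore describe these genes and are not independent support for a pattern among them. All 8 were found among the 55416 gene identifiers of each table, and all 8 passed the low-count filter that left 17130 genes for testing.

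Messenger RNA of whole mouse ear skin was sequenced in 12 libraries, 3 in each of 4 groups. All mice were C57BL/6, aged 8 to 12 weeks, and all titles name day 6. In IMQ_GW3965, the ears received 20.8 mg of Aldara cream every day, which holds 5% imiquimod, a Toll-like receptor 7 agonist used to inflame mouse skin in a psoriasis-like way. These mice were also injected in the peritoneum, daily from day 3, with 20 mg/kg of GW3965, which activates the liver X receptors (LXR). IMQ_Troglitazone had the same cream and, on the same schedule, 150 mg/kg of troglitazone, an agonist of the nuclear receptor PPARγ. IMQ_Veh had the cream with the DMSO vehicle. UTX_Veh is labelled with the vehicle and without imiquimod, and the term UTX is not explained. The 2 drugs were given at different doses, so a comparison between them is one between treatments as given. Whether the libraries of a group are separate animals is not in the labels. The p-values therefore cover only the spread among the sequenced libraries, which could be technical. Because whole skin was used, more cells of a type and more RNA per cell cannot be told apart in any value below.

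Lipoproteins are particles in which apolipoproteins solubilise cholesterol, phospholipid and triglyceride. Lipases and transfer proteins reshape the particles in the tissue, and receptors on the cell surface take them up. LXR responds to oxidised cholesterol and PPARγ to fatty acids, and both switch on genes of lipid transport when paired with the retinoid X receptor. In mouse macrophages, Apoe, Pltp and Lpl are textbook LXR targets, and Lpl is a textbook PPARγ target in adipocytes. In skin, keratinocytes, sebocytes, adipocytes and macrophages all handle large amounts of lipid.

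Total expected counts ran between 18242074 and 25641602 per library. IMQ_GW3965 replicate 3 stood apart, with 11.624% of its counts in the identifier ENSMUSG00000119584, which held 0.045% to 0.138% elsewhere. The labelled tissue was checked on 8 keratinocyte markers, whose summed level was 57600 to 75300 CPM in IMQ_GW3965, 58700 to 67900 CPM in IMQ_Troglitazone, 53000 to 74600 CPM in IMQ_Veh and 24900 to 28600 CPM in UTX_Veh. CPM are depth-scaled counts (edgeR's TMM method). Calls are edgeR quasi-likelihood tests with an adjusted p (Benjamini-Hochberg, over all 17130 genes) under 0.05, and changes are log2 fold changes ± standard error.

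Both drugs were accompanied by higher Apoe and Apod in imiquimod-treated skin, 2 genes that were lower in IMQ_Veh than in UTX_Veh. The remaining 6 genes did not pass the test against IMQ_Veh under either drug. Between the drugs, Apoe and Apoc1 were called higher and Lrp1 lower in IMQ_GW3965 than in IMQ_Troglitazone. These calls were lost in 18, 13 and 11 of 22 alternative settings for Apoe, Apoc1 and Lrp1, so that difference is not settled. Imiquimod with vehicle, against UTX_Veh, was accompanied by lower Apoe, Apod, Lpl, Vldlr and Lrp1 and by higher Lipg.

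These counts stand beside the following shares of all tested genes. For IMQ_GW3965 against IMQ_Veh, 2 of the 8 genes were called, both higher, where 6.59% of all genes were called, 3.71% higher and 2.88% lower. For IMQ_Troglitazone against IMQ_Veh, 2 of the 8 were called, both higher, where 9.34% of all genes were called, 4.69% higher and 4.65% lower. For IMQ_GW3965 against IMQ_Troglitazone, 2 of the 8 were higher and 1 lower, where 1.86% of all genes were called, 1.08% higher and 0.782% lower. For IMQ_Veh against UTX_Veh, 1 of the 8 was higher and 5 were lower, where 61.9% of all genes were called, 33.0% higher and 28.9% lower. For IMQ_GW3965 against UTX_Veh, 3 of the 8 were higher and 2 lower, where 50.2% of all genes were called, 28.7% higher and 21.5% lower. For IMQ_Troglitazone against UTX_Veh, 2 of the 8 were higher and 1 lower, where 45.3% of all genes were called, 26.5% higher and 18.8% lower. Since the 8 genes were chosen with these counts known, nothing is read from the shares. The comparisons share libraries: the 3 IMQ_Veh libraries are the reference for both drugs, and the 3 UTX_Veh libraries are the reference for all imiquimod groups.

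The median log2 fold change of the 8 genes was 0.55 for IMQ_GW3965 against IMQ_Veh, beside -0.01 over all tested genes, and 0.52 for IMQ_Troglitazone against IMQ_Veh, beside -0.02. It was 0.09 between the drugs, beside 0.01 over all genes, and -0.67 for IMQ_Veh against UTX_Veh, beside 0.01.

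**Figure D1:**
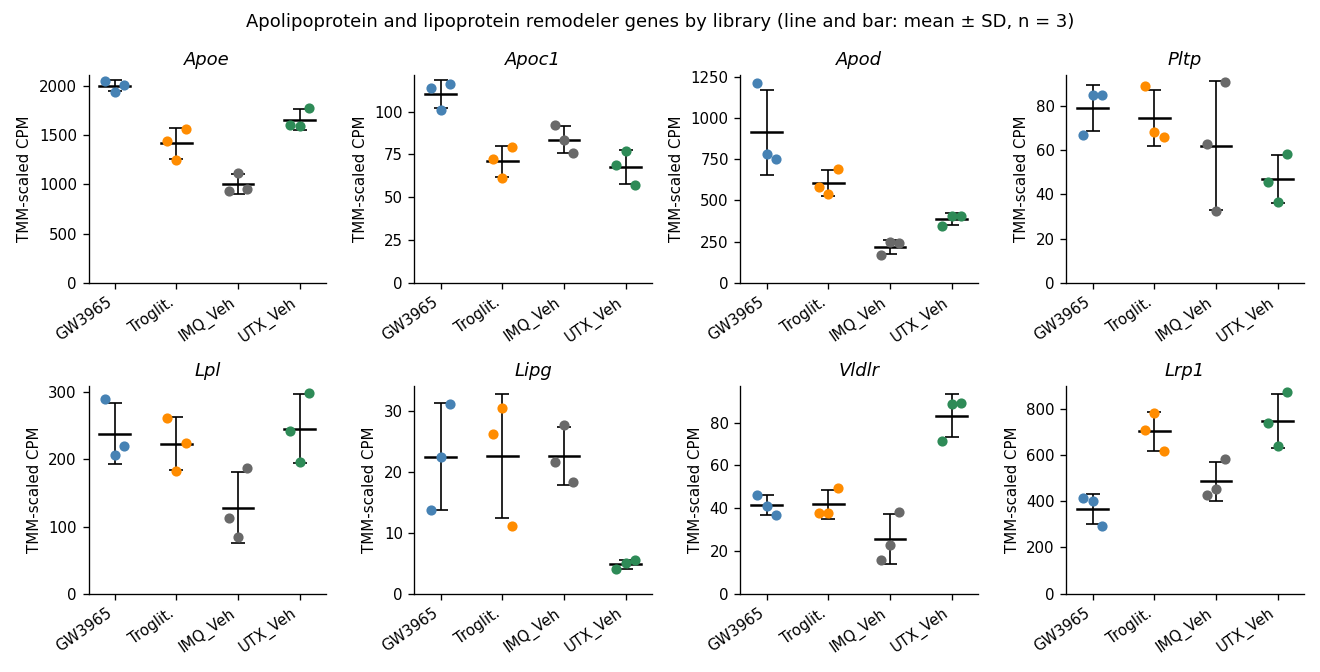
TMM-scaled CPM (vertical axis, starting at 0) of each gene in the 3 libraries of each group (points), with the mean (line) and SD (bar). The IMQ_Veh libraries of Apoe (930 to 1120 CPM) and Apod (170 to 247 CPM) lie below those of every other group, and Lipg lies at 11.1 to 31.2 CPM in the imiquimod groups, above 4.05 to 5.51 CPM in UTX_Veh.

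On the length-scaled TPM values that the authors deposited, which allow genes to be compared, the order of the members was led by Apoe in all 4 groups. Its mean was 3000 ± 412 TPM in IMQ_GW3965, 2660 ± 265 TPM in IMQ_Troglitazone, 1550 ± 220 TPM in IMQ_Veh and 3750 ± 359 TPM in UTX_Veh (SD, n = 3 each). Among all identifiers its mean had rank 34 in IMQ_GW3965, 38 in IMQ_Troglitazone, 102 in IMQ_Veh and 20 in UTX_Veh. Apod had the second highest mean TPM of the 8 in IMQ_GW3965 (1240 ± 480), IMQ_Troglitazone (1000 ± 138) and UTX_Veh (772 ± 61.4), with Apoc1 after it at 548 ± 70.6, 439 ± 48.5 and 499 ± 55.6 TPM. In IMQ_Veh the order of those genes was turned, with Apoc1 at 430 ± 20.2 TPM and Apod at 302 ± 70.5 TPM, and their libraries did not overlap (407 to 447 against 221 to 345). Lrp1 followed in every group, with 110 ± 37.6 TPM in IMQ_GW3965, 173 ± 11.8 in IMQ_Troglitazone, 140 ± 20.6 in IMQ_Veh and 235 ± 29.8 in UTX_Veh. Lpl and Pltp were neighbours whose libraries overlapped in 3 groups: in IMQ_GW3965 (57.2 to 97.0 against 54.0 to 67.7 TPM), IMQ_Troglitazone (76.0 to 99.0 against 63.4 to 81.9 TPM) and IMQ_Veh (27.5 to 59.8 against 27.0 to 73.3 TPM). In UTX_Veh, Lpl (89.3 to 144 TPM) lay above Pltp (40.8 to 67.9 TPM). Vldlr and Lipg were the least abundant of the 8 in each group. They overlapped in the imiquimod groups, and in UTX_Veh the Vldlr libraries (24.0 to 29.2 TPM) lay above those of Lipg (2.01 to 2.75 TPM).

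**Figure D2:**
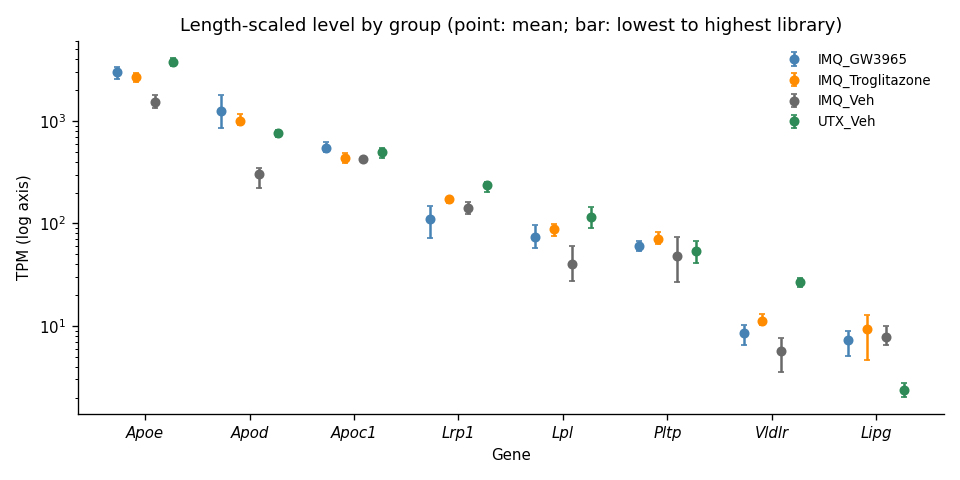
Deposited TPM on a log axis for the 8 genes, by group (point: mean of 3 libraries; bar: lowest to highest library). Apoe has the highest mean in each group, between 1550 TPM in IMQ_Veh and 3750 TPM in UTX_Veh, and Apod spans 302 TPM in IMQ_Veh to 1240 TPM in IMQ_GW3965.

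Apoe (ENSMUSG00000002985) and Apoc1 (ENSMUSG00000040564) are neighbours on the minus strand of mouse chromosome 7 (GRCm38, positions 19696109 to 19699188 and 19689481 to 19692660), 3448 bases apart, in the cluster that also holds Apoc4 and Apoc2. Apod (ENSMUSG00000022548) lies elsewhere, on the minus strand of chromosome 16 at 31296192 to 31314808. The promoter windows of Apoe and Apod are printed because these are the 2 members called higher with both drugs. They are the windows of the most upstream start site in RefSeq's GRCm38.p6 annotation, 250 bases before to 50 after the start, on the gene's strand. RefSeq windows matched 5 of the 8 members. The Apoe window is chr7:19699139-19699438 and the Apod window is chr16:31314759-31315058, both minus strand, and capitals would mark a searched motif.
Apoe: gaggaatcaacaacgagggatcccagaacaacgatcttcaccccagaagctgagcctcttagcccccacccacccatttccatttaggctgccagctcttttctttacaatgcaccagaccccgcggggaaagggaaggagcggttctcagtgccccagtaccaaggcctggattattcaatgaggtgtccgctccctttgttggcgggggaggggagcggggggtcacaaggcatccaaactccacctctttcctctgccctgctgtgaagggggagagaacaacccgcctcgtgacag
Apod: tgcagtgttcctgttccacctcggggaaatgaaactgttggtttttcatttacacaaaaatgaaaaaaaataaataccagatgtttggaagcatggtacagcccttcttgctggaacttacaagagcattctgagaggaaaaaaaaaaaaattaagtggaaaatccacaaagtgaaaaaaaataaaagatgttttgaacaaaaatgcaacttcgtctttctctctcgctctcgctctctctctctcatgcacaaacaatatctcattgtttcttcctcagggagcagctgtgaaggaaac
The motifs searched on both strands were the nuclear receptor half-site AGGTCA, its direct repeats DR1 and DR4 in degenerate form (the arrangements that PPARγ and LXR bind with their partner), the TATA box (TATAAA), the CCAAT box (CCAAT) and the SP1 box (GGGCGG). None of these letter strings was found in either window, so neither has capitals. Over all 32851 mouse windows of the same length, 16.3% held AGGTCA, 0.222% DR1, 0.0822% DR4, 13.6% the TATA box, 37.4% the CCAAT box and 35.7% the SP1 box. The windows differed in base composition, with 57.7% G and C in Apoe and 37.3% in Apod. The other Apoe windows of the table were searched too, and the second held TATAAA.

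Apoe encodes apolipoprotein E, the ligand through which remnant particles and cholesterol-rich particles are bound by receptors such as Vldlr and Lrp1. It was measured at 2050, 1940 and 2010 CPM in IMQ_GW3965, 1440, 1250 and 1560 CPM in IMQ_Troglitazone, 930, 1120 and 957 CPM in IMQ_Veh, beside 1600, 1590 and 1780 CPM in UTX_Veh. The 3 IMQ_GW3965 libraries were the highest of the series and the 3 IMQ_Veh libraries the lowest. Against IMQ_Veh, Apoe rose by 1.0 ± 0.11 in IMQ_GW3965 (edgeR adjusted p = 0.00254) and by 0.50 ± 0.11 in IMQ_Troglitazone (adjusted p = 0.0235), without overlap of the libraries. The troglitazone call was lost in a fit of only the 2 groups (log2 0.50, adjusted p = 0.136) and without IMQ_Veh replicate 1, IMQ_Troglitazone replicate 1 or IMQ_Troglitazone replicate 3, at log2 0.45, 0.49 and 0.43 (adjusted p = 0.0986, 0.0617 and 0.0924). The difference between the drugs, tested directly, was 0.50 ± 0.11 (adjusted p = 0.0492). In IMQ_Veh, Apoe fell by 0.72 on the log2 scale against UTX_Veh (SE 0.11, adjusted p = 0.000208). Set against UTX_Veh, IMQ_GW3965 was at 0.27 (adjusted p = 0.0591) and IMQ_Troglitazone at -0.22 (adjusted p = 0.124). These values passed in some alternatives, for IMQ_GW3965 without IMQ_Veh replicate 3 (0.28, adjusted p = 0.0445) and for IMQ_Troglitazone with upper-quartile scaling (-0.34, adjusted p = 0.0287), among others.

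The scale mattered for that last pair. Apoe TPM in IMQ_GW3965 (2580 to 3400) lay below those in UTX_Veh (3470 to 4160), although its CPM lay above. TPM divide by transcript length and by the length-weighted total of each library and are not rescaled by TMM. For IMQ_Veh, both scales placed Apoe lower than in UTX_Veh.

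Apoc1 encodes a small apolipoprotein that moves between particles and tempers their binding to receptors and lipases. It was at 114, 101 and 116 CPM in IMQ_GW3965, 72.3, 61.4 and 79.1 CPM in IMQ_Troglitazone, 92.0, 83.2 and 75.8 CPM in IMQ_Veh, beside 69.0, 77.0 and 57.2 CPM in UTX_Veh. The IMQ_GW3965 libraries were again the highest, and those of the other groups overlapped. Between the drugs, Apoc1 was 0.64 ± 0.13 higher in IMQ_GW3965 than in IMQ_Troglitazone (adjusted p = 0.0365). Against IMQ_Veh neither drug passed: the log2 values were 0.40 ± 0.13 for IMQ_GW3965 (adjusted p = 0.0747) and -0.24 ± 0.13 for IMQ_Troglitazone (adjusted p = 0.241). IMQ_Veh against UTX_Veh gave 0.30 ± 0.13 (adjusted p = 0.0526). That value passed in 5 of 22 alternatives, among them the lane covariate (0.38, adjusted p = 0.0103), and IMQ_GW3965 against IMQ_Veh passed with DESeq2 (0.39, adjusted p = 0.0462). Apoc1 was called higher in IMQ_GW3965 than in UTX_Veh (0.70 ± 0.13, adjusted p = 0.000787). Although Apoe and Apoc1 are neighbours, their centred group means differed: on the log2 scale Apoe was at -0.56 and Apoc1 at 0.04 in IMQ_Veh, and both were at 0.44 in IMQ_GW3965.

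Apod encodes apolipoprotein D, a lipocalin that binds arachidonic acid and other small lipids and is not related in sequence to the other apolipoproteins. It had 1210, 781 and 750 CPM in IMQ_GW3965, 583, 539 and 692 CPM in IMQ_Troglitazone, 170, 247 and 240 CPM in IMQ_Veh, beside 347, 408 and 404 CPM in UTX_Veh. The 4 groups did not overlap, and IMQ_GW3965 replicate 1 was the highest library. Among the 8 genes, Apod had the largest fitted change against IMQ_Veh under each drug. It rose 4.16-fold in IMQ_GW3965 (log2 2.06 ± 0.20, adjusted p = 0.00222) and 2.76-fold in IMQ_Troglitazone (1.46 ± 0.20, adjusted p = 0.00676). IMQ_GW3965 was also higher than UTX_Veh, by 1.24 ± 0.20 (adjusted p = 0.000342), and so was IMQ_Troglitazone, by 0.65 ± 0.19 (adjusted p = 0.0183). The drugs did not pass when compared directly (0.59 ± 0.19, adjusted p = 0.144, 95% interval 0.17 to 1.02 without adjustment). IMQ_Veh was lower than UTX_Veh by a log2 change of -0.82 ± 0.19 (adjusted p = 0.00341). Over 22 alternatives, the Apod call of IMQ_Troglitazone against IMQ_Veh was lost in the fit of the 2 groups alone (adjusted p = 0.0934). That of IMQ_Troglitazone against UTX_Veh was lost without UTX_Veh replicate 1 (0.58, adjusted p = 0.0693) and without IMQ_Troglitazone replicate 3 (0.55, adjusted p = 0.0581).

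Apod and the sebocyte markers were compared library by library. The markers' summed level (8 genes, all with counts in every group) was 1830 to 2120 CPM in IMQ_GW3965, 1490 to 1910 CPM in IMQ_Troglitazone, 740 to 1590 CPM in IMQ_Veh and 1030 to 1160 CPM in UTX_Veh. The IMQ_GW3965 sums lay above those of IMQ_Veh, while the IMQ_Troglitazone and UTX_Veh sums overlapped the IMQ_Veh ones, where Apod did not. Of the 8 markers, 5 were higher in IMQ_GW3965 and 3 in IMQ_Troglitazone than in IMQ_Veh, beside 3.71% and 4.69% of all tested genes. In IMQ_Veh against UTX_Veh, 4 of the 8 were lower, as Apod was, and 1 was higher. The shares of all tested genes there were 28.9% and 33.0%. Krt79 had the highest mean of the 8 in each group, so it weighs most in the sums. Its mean was 588 CPM in IMQ_Veh and 405 CPM in UTX_Veh, while that of Far2 was 107 and 315 CPM. In IMQ_Veh, the sebocyte sum was 777 CPM in replicate 1, 1590 CPM in replicate 2 and 740 CPM in replicate 3. Apod was at 170, 247 and 240 CPM in these libraries, beside 539 to 692 CPM in the IMQ_Troglitazone libraries. The part of sebocytes in the Apod result was not tested. Macrophage markers, the list of a cell type known for Apoe, summed to 682 to 934 CPM in IMQ_GW3965, 830 to 1060 CPM in IMQ_Troglitazone, 418 to 1020 CPM in IMQ_Veh and 331 to 454 CPM in UTX_Veh. The IMQ_Veh macrophage sums of 735 and 1020 CPM lay above all of UTX_Veh, where Apoe was higher. The part of macrophages in the Apoe result was not tested.

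**Figure D3:**
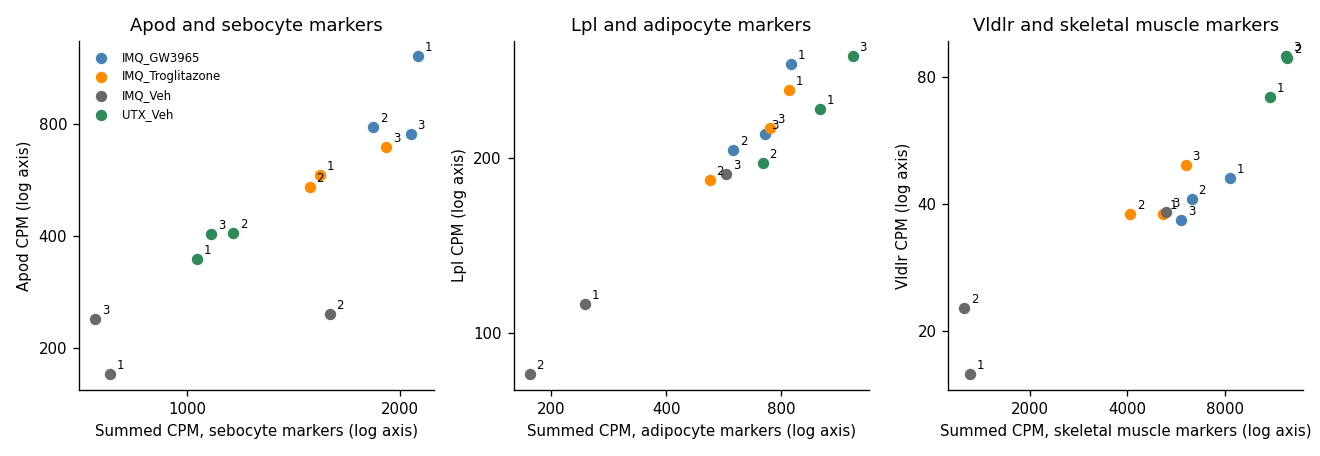
CPM of Apod, Lpl and Vldlr (vertical log axes) against the summed CPM of sebocyte, adipocyte and skeletal muscle markers (horizontal log axes) in each of the 12 libraries, numbered by replicate. IMQ_Veh replicate 3 lies apart from replicates 1 and 2 in adipocyte (575 against 246 and 176 CPM) and skeletal muscle markers (5240 against 1310 and 1260 CPM), and has the highest Lpl and Vldlr of its group.

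Pltp (ENSMUSG00000017754, minus strand of chromosome 2, 164839518 to 164857711) encodes phospholipid transfer protein, which moves phospholipid between particles. It had 66.9, 84.8 and 85.2 CPM in IMQ_GW3965, 89.0, 68.4 and 66.2 CPM in IMQ_Troglitazone, 62.7, 32.7 and 90.9 CPM in IMQ_Veh, beside 45.4, 36.7 and 58.5 CPM in UTX_Veh. The IMQ_Veh libraries spanned the range of all other groups. With all libraries in the edgeR fit, Pltp passed the test in none of the 6 comparisons, with log2 values of 0.35 ± 0.29 for IMQ_GW3965 (adjusted p = 0.491) and 0.27 ± 0.29 for IMQ_Troglitazone (adjusted p = 0.587) against IMQ_Veh. The values against UTX_Veh were 0.75 ± 0.30 in IMQ_GW3965 (adjusted p = 0.0522) and 0.67 ± 0.30 in IMQ_Troglitazone (adjusted p = 0.083). Single libraries moved these values: IMQ_GW3965 against IMQ_Veh was at 0.04 without IMQ_Veh replicate 2 and 0.73 without IMQ_Veh replicate 3, and IMQ_Veh against UTX_Veh, at 0.40 with all libraries, was at 0.67 and called (adjusted p = 0.02) without IMQ_Veh replicate 2. Without that library, Pltp was also called against UTX_Veh in IMQ_GW3965 (0.71, adjusted p = 0.00983) and IMQ_Troglitazone (0.64, adjusted p = 0.0189), and with DESeq2 in IMQ_GW3965 (0.73, adjusted p = 0.0338). The 95% interval of the difference between the drugs ran from -0.56 to 0.72. Pltp overlaps Ctsa on the other strand by 1515 bases, and the strand setting of the counting is not given in the sources used here, so reads of the pair may be mixed. Ctsa had 190 to 416 CPM.

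Lpl (ENSMUSG00000015568, plus strand of chromosome 8, 68880491 to 68907448) encodes lipoprotein lipase, which frees fatty acids from triglyceride in circulating particles. Its level was 290, 206 and 220 CPM in IMQ_GW3965, 262, 183 and 225 CPM in IMQ_Troglitazone, 112, 84.8 and 188 CPM in IMQ_Veh, beside 243, 196 and 299 CPM in UTX_Veh. IMQ_Veh replicates 1 and 2 were below every other library, and replicate 3 lay within the range of IMQ_Troglitazone. Lpl was lower in IMQ_Veh than in UTX_Veh, with a log2 change of -0.94 ± 0.26 (adjusted p = 0.00878). Against IMQ_Veh the values were 0.90 ± 0.26 in IMQ_GW3965 (adjusted p = 0.0618) and 0.80 ± 0.26 in IMQ_Troglitazone (adjusted p = 0.0759), short of the threshold. Without IMQ_Veh replicate 3 they were 1.28 (adjusted p = 0.0026) and 1.18 (adjusted p = 0.00361), past it, as they were with DESeq2 (0.89 and 0.81, adjusted p = 0.0123 and 0.0215). Over 22 alternatives they passed in only 6 for IMQ_GW3965 and 5 for IMQ_Troglitazone, and were as low as 0.68 and 0.59. Against UTX_Veh, IMQ_GW3965 was at -0.04 (adjusted p = 0.904) and IMQ_Troglitazone at -0.14 (adjusted p = 0.684).

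The 10 adipocyte markers, of which Adipoq and Plin1 define the cell type, were detected in every group, and their sum, like Lpl, was lowest in IMQ_Veh replicates 1 and 2. Their sums were 599 to 848 CPM in IMQ_GW3965, 520 to 837 CPM in IMQ_Troglitazone, 176 to 575 CPM in IMQ_Veh and 715 to 1230 CPM in UTX_Veh. IMQ_Veh replicate 3, with 575 CPM, was also the Lpl-rich library of its group. Of the 10 markers, 4 were called lower in IMQ_Veh than in UTX_Veh, where 28.9% of all genes were. Against IMQ_Veh, 1 was called higher in IMQ_Troglitazone and 0 in IMQ_GW3965, where 4.69% and 3.71% of all genes were higher. The part of adipocytes in the Lpl values was not tested. Cardiac and skeletal muscle also make Lpl, and the 10 skeletal muscle markers summed to 5860 to 8260 CPM in IMQ_GW3965, 4080 to 6050 CPM in IMQ_Troglitazone, 1260 to 5240 CPM in IMQ_Veh and 11000 to 12400 CPM in UTX_Veh. All 10 were called lower in IMQ_Veh than in UTX_Veh, and 2 were called higher in IMQ_GW3965 than in IMQ_Veh. The shares of all genes were 28.9% and 3.71%. The part of muscle in the Lpl values was not tested.

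Lipg (ENSMUSG00000053846, minus strand of chromosome 18, 74939322 to 74961263) encodes endothelial lipase, a phospholipase that acts mainly on high-density particles. It was at 13.7, 22.5 and 31.2 CPM in IMQ_GW3965, 26.2, 30.4 and 11.1 CPM in IMQ_Troglitazone, 21.6, 27.7 and 18.4 CPM in IMQ_Veh, beside 4.05, 4.97 and 5.51 CPM in UTX_Veh. Every imiquimod library was above every UTX_Veh library, and the imiquimod groups overlapped each other fully. Lipg was the member with the largest rise against UTX_Veh: 2.21 ± 0.38 in IMQ_GW3965 (adjusted p = 0.000564), 2.22 ± 0.37 in IMQ_Troglitazone (adjusted p = 0.000771) and 2.22 ± 0.37 in IMQ_Veh (adjusted p = 0.000357). Against IMQ_Veh the drugs gave -0.02 ± 0.35 for GW3965 (95% interval -0.78 to 0.74) and -0.00 ± 0.35 for troglitazone (-0.76 to 0.75). The 10 endothelial markers summed to 201 to 227 CPM in IMQ_GW3965 and 197 to 219 CPM in IMQ_Troglitazone. Their sums were 78.5 to 284 CPM in IMQ_Veh, a range that spans every other group, and 205 to 280 CPM in UTX_Veh. The part of endothelial cells in the Lipg values was not tested.

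Vldlr (ENSMUSG00000024924, plus strand of chromosome 19, 27216484 to 27254231) encodes the very-low-density lipoprotein receptor, which binds apolipoprotein E and works with lipoprotein lipase in muscle and fat. It had 46.1, 41.1 and 36.7 CPM in IMQ_GW3965, 37.8, 37.9 and 49.5 CPM in IMQ_Troglitazone, 15.8, 22.7 and 38.3 CPM in IMQ_Veh, beside 71.5, 88.8 and 89.3 CPM in UTX_Veh. All imiquimod libraries lay below all UTX_Veh libraries. The log2 changes against UTX_Veh were -1.01 ± 0.25 in IMQ_GW3965 (adjusted p = 0.00574), -1.0 ± 0.25 in IMQ_Troglitazone (adjusted p = 0.00748) and -1.70 ± 0.26 in IMQ_Veh (adjusted p = 0.000159). Against IMQ_Veh, IMQ_GW3965 was at 0.69 ± 0.25 (adjusted p = 0.113) and IMQ_Troglitazone at 0.71 ± 0.25 (adjusted p = 0.0956). Without IMQ_Veh replicate 3, whose Vldlr and skeletal muscle markers were the highest of its group, both were past the threshold, at 1.10 (adjusted p = 0.00241) and 1.11 (adjusted p = 0.00219). Over 22 alternatives the values passed in only 2 for IMQ_GW3965 and 3 for IMQ_Troglitazone, and were as low as 0.44 and 0.46. The part of muscle in the Vldlr values was not tested.

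Lrp1 (ENSMUSG00000040249, minus strand of chromosome 10, 127538161 to 127621148) encodes a large endocytic receptor for apolipoprotein E, proteases and many other ligands. It was at 412, 399 and 293 CPM in IMQ_GW3965, 710, 783 and 616 CPM in IMQ_Troglitazone, 426, 451 and 582 CPM in IMQ_Veh, beside 737, 638 and 872 CPM in UTX_Veh. The IMQ_GW3965 libraries were the lowest of the series, and those of IMQ_Troglitazone overlapped UTX_Veh. Between the drugs, Lrp1 was lower in IMQ_GW3965 than in IMQ_Troglitazone, with a log2 difference of -0.93 ± 0.17 (adjusted p = 0.0311, 95% interval -1.31 to -0.56). Neither drug passed against IMQ_Veh, and their values had opposite signs: -0.40 ± 0.17 in IMQ_GW3965 (adjusted p = 0.16) and 0.53 ± 0.17 in IMQ_Troglitazone (adjusted p = 0.0684). The troglitazone value passed in 5 of 22 alternatives, among them DESeq2 (0.54, adjusted p = 0.0225), the lane covariate (0.61, adjusted p = 0.0474) and the fit without IMQ_Veh replicate 3 (0.68, adjusted p = 0.0147). Lrp1 was lower than in UTX_Veh in IMQ_GW3965 (-1.02 ± 0.17, adjusted p = 0.000488) and in IMQ_Veh (-0.62 ± 0.17, adjusted p = 0.00736), and IMQ_Troglitazone was at -0.09 (adjusted p = 0.68). An antisense gene, Gm16217, overlaps Lrp1 by 1323 bases and had no counts in any library.

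The promoter window of Lrp1, chr10:127621099-127621398 on the minus strand, is printed because Lrp1 was the member lower in IMQ_GW3965 than in IMQ_Troglitazone. It holds 1 of the searched motifs, GGGCGG on the reverse strand at -99 to -94 from the start, in capitals.
Lrp1: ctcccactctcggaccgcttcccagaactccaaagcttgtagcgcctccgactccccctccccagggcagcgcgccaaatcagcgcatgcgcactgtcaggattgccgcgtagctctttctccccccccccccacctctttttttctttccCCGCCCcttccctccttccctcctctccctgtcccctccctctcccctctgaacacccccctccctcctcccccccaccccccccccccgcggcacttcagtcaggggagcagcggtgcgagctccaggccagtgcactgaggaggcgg
Its G and C content was 67.7%, the highest of the 5 member windows, and 35.7% of all windows held GGGCGG.

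**Figure D4:**
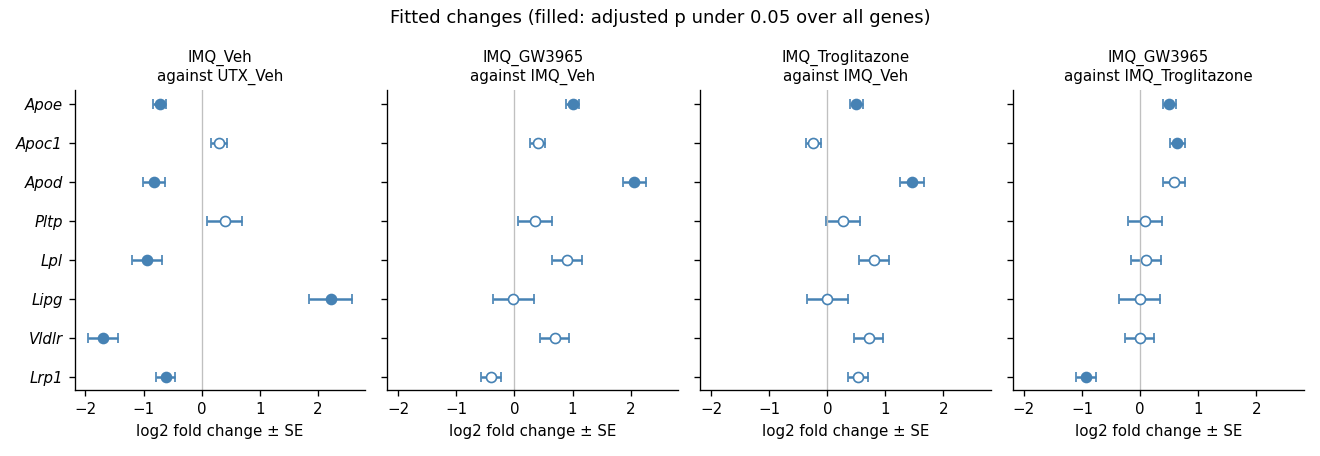
Fitted log2 fold changes (horizontal axis, bars: standard error) of the 8 genes in 4 comparisons, with filled points for an edgeR adjusted p under 0.05 over all genes. Apoe and Apod are filled in all but the direct comparison for Apod (0.59), and Lrp1 is the one filled point left of 0 between the drugs (-0.93).

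The comparison between the drugs has limits that bear on its 3 called members. Over 22 alternative settings the call was lost in 18 for Apoe, 13 for Apoc1 and 11 for Lrp1, while the directions held. Across all tested genes, the difference between IMQ_GW3965 and IMQ_Troglitazone followed transcript length, with a median log2 of 0.32 for genes under 1000 bases, 0.13 for 1000 to 2000, -0.03 for 2000 to 4000, -0.18 for 4000 to 8000 and -0.34 over 8000. The mean deposited transcript length was 435 bases for Apoc1, 981 for Apoe and 5137 for Lrp1, so the short genes were on the higher side and the long gene on the lower side, as their length classes were. With each library's trend on length removed, an alternative chosen after seeing the data, the differences were 0.26 for Apoe (adjusted p = 0.691), 0.26 for Apoc1 (adjusted p = 0.645) and -0.77 for Lrp1 (adjusted p = 0.221). The same correction left 1 of the 17130 genes called between the drugs, against 319 without it. The deposited mean length of Lrp1 itself was 3835 to 4624 bases in IMQ_GW3965, 5731 to 6694 in IMQ_Troglitazone, 4093 to 4634 in IMQ_Veh and 5368 to 6427 in UTX_Veh. What moved the length trend was not tested.

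The Apoe and Apod calls against IMQ_Veh were kept with the length correction, although the troglitazone comparison also followed length. Between IMQ_GW3965 and IMQ_Veh the class medians ran from 0.04 for the shortest genes to -0.10 for the longest. For IMQ_Troglitazone against IMQ_Veh they ran from -0.26 to 0.24. The correction left 1101 genes called for IMQ_GW3965, against 1129 without it, and 712 for IMQ_Troglitazone, against 1600. After the correction Apoe was at 0.92 in IMQ_GW3965 (adjusted p = 0.00404) and 0.66 in IMQ_Troglitazone (adjusted p = 0.0148). Apod was at 1.98 (adjusted p = 0.00252) and 1.60 (adjusted p = 0.00757). For IMQ_Veh against UTX_Veh, where the medians ran from 0.49 to -0.45, the Lrp1 call was lost (-0.34, adjusted p = 0.0632) and Apoc1 turned to -0.23 (adjusted p = 0.074). The Apoc1 call of IMQ_GW3965 against UTX_Veh was also lost (0.10, adjusted p = 0.436).

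**Figure D5:**
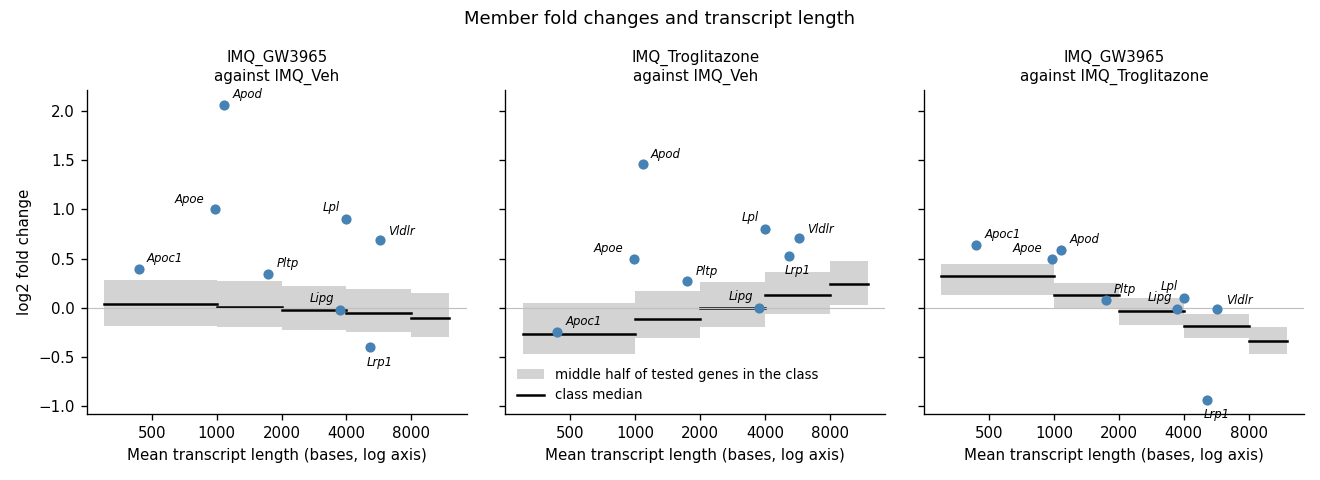
Log2 fold change (vertical axis) of the 8 genes at their mean transcript length (horizontal log axis, bases), over the class median (line) and the 25th to 75th percentile (grey) of all tested genes. Between the drugs the class medians fall with length (0.32 to -0.34), and Apoe and Apod lie above the grey bands in both comparisons against IMQ_Veh.

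The libraries also carry a lane field, L001 or L009, of unexplained meaning. Within L001 and within L009, with 1 or 2 libraries per group, the log2 difference of IMQ_GW3965 from IMQ_Veh was 0.85 and 1.04 for Apoe and 1.94 and 1.95 for Apod. For IMQ_Troglitazone from IMQ_Veh it was 0.42 and 0.41 for Apoe and 1.36 and 1.41 for Apod. Between the drugs it was 0.44 and 0.64 for Apoe, 0.60 and 0.72 for Apoc1, and -0.93 and -0.97 for Lrp1. For IMQ_Veh minus UTX_Veh the signs of Apoe (-0.51 and -0.91), Apod (-0.60 and -1.0), Lpl (-1.36 and -1.05), Lipg (2.60 and 1.84), Vldlr (-1.81 and -1.86) and Lrp1 (-0.61 and -0.81) were also the same in both.

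Around these 8 genes, 58 further genes of lipoprotein metabolism were listed, and 43 passed the low-count filter. Of the 43, 5 were higher and 1 lower in IMQ_GW3965 than in IMQ_Veh, and 4 were higher and 1 lower in IMQ_Troglitazone than in IMQ_Veh. Of all tested genes, 3.71% were higher and 2.88% lower for GW3965, and 4.69% and 4.65% for troglitazone. Between the drugs, 1 of the 43 was called, higher in IMQ_GW3965, where 1.08% of all tested genes were higher. Against UTX_Veh, 14 were higher and 14 lower in IMQ_Veh, 11 higher and 6 lower in IMQ_GW3965, and 12 higher and 9 lower in IMQ_Troglitazone. Of all tested genes, 33.0% were higher and 28.9% lower in IMQ_Veh, 28.7% higher and 21.5% lower in IMQ_GW3965, and 26.5% higher and 18.8% lower in IMQ_Troglitazone. Of 12 other apolipoproteins, only Clu and Apoc2 passed the filter. The other 10, among them the plasma apolipoproteins Apoa1, Apoa2, Apob and Apoc3, had at most 14 counts in any library.

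Clu encodes clusterin (apolipoprotein J), a chaperone found on high-density particles. It had 246, 219 and 176 CPM in IMQ_GW3965, 224, 203 and 274 CPM in IMQ_Troglitazone, 93.3, 108 and 139 CPM in IMQ_Veh, beside 179, 196 and 209 CPM in UTX_Veh. It rose by 0.91 ± 0.17 in IMQ_GW3965 (adjusted p = 0.0158) and 1.04 ± 0.17 in IMQ_Troglitazone (adjusted p = 0.00948) against IMQ_Veh, and was at -0.78 ± 0.16 in IMQ_Veh against UTX_Veh (adjusted p = 0.00163). Apoc2, the activator of lipoprotein lipase, was higher in IMQ_Veh than in UTX_Veh (1.52 ± 0.39, adjusted p = 0.00506) at under 1 CPM, with means of 0.756 and 0.258 CPM.

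Among 12 tested lipases, transferases and their partners, Pla2g2e, a secreted phospholipase, was higher in IMQ_GW3965 than in IMQ_Veh (5.03 against 2.25 CPM, 1.15 ± 0.29, adjusted p = 0.0382). Angptl4, an inhibitor of lipoprotein lipase, was higher in IMQ_Veh than in UTX_Veh (21.6 ± 8.23 against 5.35 ± 1.92 CPM, log2 2.02 ± 0.33, adjusted p = 0.000278), where Lpl was lower. Of the 12, 4 were higher and 1 lower there, beside the same shares of all genes as above. Pla2g7 and Lmf2 were among the higher genes and Lcat was the lower one.

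Of 14 tested receptors and their partners, 5 were higher and 7 lower in IMQ_Veh than in UTX_Veh, where 33.0% of all tested genes were higher and 28.9% lower. Lrp8, the reelin and apolipoprotein E receptor closest to Vldlr, went the other way from it, with 21.6 ± 8.51 against 3.71 ± 0.324 CPM (2.54 ± 0.36). Lrp4 (-1.19 ± 0.14) and Lrp6 (-0.69 ± 0.11, adjusted p = 0.000303) were lower, as Lrp1 was. Mylip, an LXR target whose product marks Vldlr for degradation, was lower in IMQ_Veh than in UTX_Veh (-1.0 ± 0.13). It rose in IMQ_GW3965 against IMQ_Veh, with 59.7, 48.4 and 53.2 CPM against 30.4, 32.5 and 33.6 CPM (0.74 ± 0.13, adjusted p = 0.0125). In IMQ_Troglitazone, Lrp5 (0.45 ± 0.08, adjusted p = 0.0127) and the sorting receptor Sort1 (0.36 ± 0.08, adjusted p = 0.0267) were higher than in IMQ_Veh.

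Of 8 tested scavenger receptors and sterol exporters, Cd36, a fatty acid and oxidised lipoprotein receptor, was the one called under the drugs. It had 195, 148 and 180 CPM in IMQ_GW3965, 198, 169 and 247 CPM in IMQ_Troglitazone, 48.1, 94.4 and 101 CPM in IMQ_Veh, beside 128, 131 and 154 CPM in UTX_Veh. It rose by 1.10 ± 0.24 in IMQ_GW3965 (adjusted p = 0.0244) and 1.34 ± 0.24 in IMQ_Troglitazone (adjusted p = 0.0126), and was at -0.76 ± 0.24 in IMQ_Veh against UTX_Veh (adjusted p = 0.0143). The sterol exporters Abca1 and Abcg1, textbook LXR targets, were at 0.78 ± 0.24 (adjusted p = 0.0703) and 0.49 ± 0.17 (adjusted p = 0.107) in IMQ_GW3965 against IMQ_Veh, short of the threshold. The macrophage scavenger receptor Msr1 (2.35 ± 0.31), Olr1 (2.08 ± 0.50) and Stab1 (0.84 ± 0.30) were higher in IMQ_Veh than in UTX_Veh.

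The receptors that the drugs bind were measured too. Pparg, which encodes PPARγ, was at 17.6, 13.5 and 18.2 CPM in IMQ_GW3965, 13.2, 13.9 and 12.2 CPM in IMQ_Troglitazone, 7.52, 8.69 and 10.4 CPM in IMQ_Veh, beside 17.0, 16.8 and 23.0 CPM in UTX_Veh. It was higher in IMQ_GW3965 than in IMQ_Veh (0.89 ± 0.17, adjusted p = 0.0187), and IMQ_Troglitazone was at 0.56 ± 0.17 (adjusted p = 0.0592). It was lower in IMQ_Veh than in UTX_Veh (-1.09 ± 0.17, adjusted p = 0.000205). Of the LXR genes, Nr1h3 passed in none of these comparisons (0.75 ± 0.31 in IMQ_GW3965 and 0.63 ± 0.31 in IMQ_Troglitazone against IMQ_Veh, adjusted p = 0.15 and 0.206). Nr1h2 was lower in IMQ_Veh than in UTX_Veh (-0.35 ± 0.07, adjusted p = 0.0018) and was at 0.21 ± 0.08 in IMQ_GW3965 and 0.22 ± 0.07 in IMQ_Troglitazone against IMQ_Veh (adjusted p = 0.107 and 0.0857). Ppard ran the other way from Pparg: it was lower in IMQ_GW3965 (-0.67 ± 0.14, adjusted p = 0.0244) and IMQ_Troglitazone (-0.52 ± 0.14, adjusted p = 0.0435) than in IMQ_Veh, and higher in IMQ_Veh than in UTX_Veh (1.75 ± 0.15). Ppara, the form most active in fatty acid oxidation, was lower in IMQ_Veh than in UTX_Veh (-1.75 ± 0.28, adjusted p = 0.000229).

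For each member, the 2 named genes whose 4 centred group means of log2 CPM were closest were found among 11544 genes with a mean of at least 5 CPM, by the root mean square difference. Apoe was closest to Agpat5 (0.04) and Hspb8 (0.07), and Apoc1 to Acsl3 and Ndufb2 (0.05 each). Apod had no close match: Rpl27-ps3 was at 0.16 and Awat1, one of the sebocyte markers, at 0.17. Pltp was closest to Elovl4 (0.03) and Acpp (0.04), Lpl to Enpep (0.03) and Hspa1l (0.06), and Lipg to Cers3 (0.05) and Clec4a1 (0.07). Vldlr was matched within 0.01 by Zrsr1 and Mill2, and Lrp1 within 0.06 by Srcap and 0.08 by Spen. With 4 group means per gene and 11544 genes compared, such closeness is a description only.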

How the data were processed

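Per the labels' protocols, ear skin RNA was prepared with mirVana reagents and DNase, and a TruSeq stranded kit made the mRNA libraries. The submitters' processing notes list STAR 2.7.3a, RSEM 1.3.3, Trim Galore and FastQC, and the build GRCm38 (mm10), without their roles. For RSEM, the annotation release and strand setting are not stated there. The authors deposited 1 RSEM table per library, with expected counts (estimated reads per gene, not scaled for depth) and TPM (scaled by effective length and to a common total). RSEM divides reads shared between genes.

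Symbols and positions came from GENCODE M21 (GRCm38), which matched 52083 of 55416 identifiers. Expected counts were rounded and analysed in R 4.3.3 with edgeR 4.0.16: the filterByExpr rule kept 17130 genes, libraries were scaled by TMM, and the quasi-likelihood test was fitted to all 12 libraries at once without covariates (8 residual degrees of freedom), with Benjamini-Hochberg adjustment over all genes tested. Standard errors are the log2 fold change divided by the square root of F. Total expected counts were 18242074 to 25641602 per library. No replicate pair agreed within sampling noise (lowest chi-square per degree of freedom 8.338). The code was tested on simulated data.

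The members and all lists were chosen with earlier results of these data known. All 8 members are named in every comparison. The rule for the wider lists was up to 4 changed genes per list and comparison with the smallest adjusted p, plus Nr1h2, Nr1h3 and Pparg. Abca1, Abcg1 and Lcat fall outside that rule and were named after their values were seen. Genes of the wider lists are named only for IMQ_Veh against UTX_Veh and for each drug against IMQ_Veh. Some genes of the wider lists that were counted are not reported here by name. Alternatives were DESeq2 1.42.0, upper-quartile or RLE scaling, no low-count filter, a fit of the 2 groups alone, a replicate block, the lane field as a covariate, removal of ENSMUSG00000119584, leaving out libraries, and a correction for transcript length. Promoter windows are RefSeq's.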

Additional observations from a re-analysis of the deposited data

Results flagged for a closer look

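The direct test between the drugs called 3 of the 8 genes, which were chosen with their counts known. The log2 difference of IMQ_GW3965 minus IMQ_Troglitazone was 0.50 for Apoe (edgeR adjusted p = 0.0492), 0.64 for Apoc1 (adjusted p = 0.0365) and -0.93 for Lrp1 (adjusted p = 0.0311). These calls were lost in 18, 13 and 11 of 22 alternatives for Apoe, Apoc1 and Lrp1, so a difference between the drugs is not settled for them. All 3 were lost with the replicate block and with the length correction (0.26, 0.26 and -0.77, adjusted p = 0.691, 0.645 and 0.221). They stand beside the length trend reported above, whose part in them was not tested beyond the corrected values given there.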

How the results depend on the processing

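Over 22 alternatives, Apoe (log2 0.92 to 1.09) and Apod (1.81 to 2.26) stayed called in IMQ_GW3965 against IMQ_Veh, and Apoe, Apod, Lpl, Lipg and Vldlr in IMQ_Veh against UTX_Veh. The number of genes called in IMQ_GW3965 against IMQ_Veh (1129) was 2188 with DESeq2, 102 with the 2 groups alone, 549 with the lane covariate and 3041 without replicate 3 of both IMQ_Veh and IMQ_GW3965, and 4 members were called with DESeq2 and without that pair. In IMQ_Troglitazone against IMQ_Veh (1600) it was 2537 with DESeq2, 0 with the 2 groups alone, 1009 with the lane covariate, 4166 without that pair and 712 with the length correction. There, 5 members were called with DESeq2 and without that pair, 4 with no low-count filter and 0 with the 2 groups alone. Between the drugs (319) it was 940 with DESeq2, 140 with no low-count filter, 9 with the 2 groups alone, 0 without that pair and 1 with the length correction, and 0 members were called under the last 3. Leaving out 1 library in turn gave 105 (without IMQ_GW3965 replicate 1) to 3645 genes (without IMQ_Veh replicate 3) and 2 to 4 members for IMQ_GW3965 against IMQ_Veh. It gave 162 (without IMQ_Veh replicate 1) to 4460 genes (without IMQ_Veh replicate 3) and 1 to 5 members for IMQ_Troglitazone against IMQ_Veh. Between the drugs it gave 0 genes (without UTX_Veh replicate 1, IMQ_GW3965 replicate 1 or replicate 3, among others) to 692 (without IMQ_Veh replicate 3) and 0 to 3 members. The causes were not tested.

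Whether replicate numbers pair the libraries was not settled. The correlations of same-numbered deviations ran from -0.22 to 0.31, but differently numbered libraries were not correlated for comparison. With the replicate block, 131 genes and 0 members were called between the drugs (Apoe, Apoc1 and Lrp1 at adjusted p = 0.0719, 0.0551 and 0.0536). Lpl was called in IMQ_GW3965 (log2 0.95, adjusted p = 0.0241) and IMQ_Troglitazone (0.84, adjusted p = 0.0315) against IMQ_Veh, and Pltp in IMQ_GW3965 (0.79, adjusted p = 0.0292) and IMQ_Troglitazone (0.71, adjusted p = 0.0497) against UTX_Veh.

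Values that changed sign were all short of the threshold. With the length correction these were Apoc1 in IMQ_Veh against UTX_Veh (-0.23), in IMQ_Troglitazone against IMQ_Veh (0.07) and against UTX_Veh (-0.15), Pltp (-0.01), Lipg (0.09) and Vldlr (0.19) between the drugs, Apoe (-0.07) and Lpl (0.14) in IMQ_GW3965 against UTX_Veh, and Lrp1 in IMQ_Troglitazone against UTX_Veh (0.04). Without that pair of libraries, Pltp was at -0.01 in IMQ_Veh against UTX_Veh and Vldlr at 0.05 between the drugs. Lipg turned to 0.01 against IMQ_Veh for both drugs with the lane covariate, and for troglitazone to 0.00 with DESeq2, 0.02 with no low-count filter and 0.01 without ENSMUSG00000119584. Between the drugs Lipg was at 0.00 with upper-quartile scaling, the replicate block and the lane covariate, and Vldlr at 0.02 with the replicate block. Apoc1 was at -0.05 in IMQ_Troglitazone against UTX_Veh with upper-quartile scaling, which shifted the median of all genes by -0.11 in comparisons with UTX_Veh. Leaving out 1 library gave -0.32 to 0.24 for Lipg in IMQ_GW3965, -0.28 to 0.32 for Lipg and -0.03 to 0.65 for Pltp in IMQ_Troglitazone, all against IMQ_Veh. Between the drugs it gave -0.07 to 0.23 for Lpl, -0.34 to 0.26 for Lipg and -0.10 to 0.13 for Vldlr. Against UTX_Veh it gave -0.20 to 0.12 for Lpl in IMQ_GW3965, and -0.28 to 0.03 for Lpl, -0.04 to 0.17 for Apoc1 and -0.19 to 0.03 for Lrp1 in IMQ_Troglitazone.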

Other observations

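Other marker lists gave the following sums. Fibroblast markers summed to 2830 to 3520 CPM in IMQ_GW3965, 2960 to 4050 CPM in IMQ_Troglitazone, 1980 to 9500 CPM in IMQ_Veh and 4230 to 6850 CPM in UTX_Veh, with the highest value in IMQ_Veh replicate 3. Schwann cell markers summed to 230 to 311 CPM in IMQ_GW3965, 207 to 224 CPM in IMQ_Troglitazone, 169 to 229 CPM in IMQ_Veh and 416 to 514 CPM in UTX_Veh. Neutrophil markers summed to 26.4 to 56.7 CPM in IMQ_GW3965, 31.6 to 59.3 CPM in IMQ_Troglitazone, 97.9 to 106 CPM in IMQ_Veh and 5.27 to 7.31 CPM in UTX_Veh. Fpr1 was the one marker without counts in a whole group, UTX_Veh.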
